A study of Saccharomyces cerevisiae with 12 samples.

Results

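Ergosterol and fatty acid synthesis was followed through 38 genes of Saccharomyces cerevisiae, of 5449 measured, from growth into stationary phase. The genes encode the enzymes of the mevalonate and ergosterol pathways, fatty acid synthesis, activation, desaturation and elongation, their electron donors, and the sterol regulators UPC2 and ECM22. They were chosen by name: 36 matched a gene symbol of the array platform, and the other 2, the elongase genes FEN1 and SUR4, are listed there under their current names ELO2 and ELO3. Each was measured by 1 probe set.

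Yeast makes ergosterol, its counterpart of cholesterol, from acetyl-CoA through mevalonate, farnesyl pyrophosphate, squalene and lanosterol. Several late steps, like the desaturation of fatty acids by Ole1, need molecular oxygen and electrons handed over by a reductase or a cytochrome of the endoplasmic reticulum. Fatty acids start from malonyl-CoA, made by the carboxylase Acc1, and are built by the synthase Fas1-Fas2, activated by acyl-CoA synthetases and lengthened by elongases. The transcription factors Upc2 and Ecm22 activate many ergosterol genes when sterols run low. Growing cells need both products for new membranes, and cells that stop dividing store them as sterol esters and triacylglycerol.

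The cells were the laboratory strain CENPK 113-7D, with no genetic change or treatment named in the labels, grown in batch culture in SD medium with 2% glucose. There were 3 Affymetrix arrays from logarithmic growth (log phase) and 3 each from days 2, 6 and 10. From which event these days run is unclear, since the sample labels refer to stationary phase and the design text to the culture. Nothing in the labels tells separate cultures from repeat samples of 1 culture, so a p-value here sets a difference against the spread of these arrays only, which may be technical.

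All values are the deposited log2 probe set values, and a difference is a log2 difference between the means of 3 arrays with the standard error of a limma fit to all 12 arrays. A gene was called at a Benjamini-Hochberg adjusted p from limma, over all 5449 genes, under 0.05. The stationary phase genes HSP12, HSP26, SSA3, SPG1, SPG4 and GRE1 were all called higher than in log phase on days 2, 6 and 10, and of the growth genes CLN2, CLB2, HTB2, RPL3, RPA190 and NOP1 all but CLN2 on day 2 were called lower. From day 6 to day 10, RPL3, RPA190 and NOP1 were called higher and HSP26, SSA3, SPG1, SPG4 and GRE1 lower. At that step HSP12, CLN2, CLB2 and HTB2 were not called. Background was set at the 95th percentile of probe sets for another yeast species, and 5137 to 5259 genes exceeded it on an array. All 38 genes of the pathways did so in the mean of every time, with means from 6.93 to 12.04, and none was lost to a filter on dim genes. The differences are relative to the other genes of an array. When arrays were centred on bacterial and phage hybridisation controls instead, every gene moved by -0.42 on day 2, -1.19 on day 6 and -0.97 on day 10 against log phase, and between the stationary days by -0.77 (day 6 against day 2) and 0.22 (day 10 against day 6). Without the control bioB, which was low against bioC on the log phase arrays (-2.17 ± 0.08, SD, n = 3, against -0.79 ± 0.04 on day 2), the same shifts were -0.05, -0.86, -0.64, -0.81 and 0.21. This is called control centring below. How it relates to transcripts per cell was not tested. A gene called before or after it whose sign turns is listed in the closing section. In RNA from whole cultures, fewer cells holding a transcript and less of it per cell cannot be told apart.

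**Figure D1:**
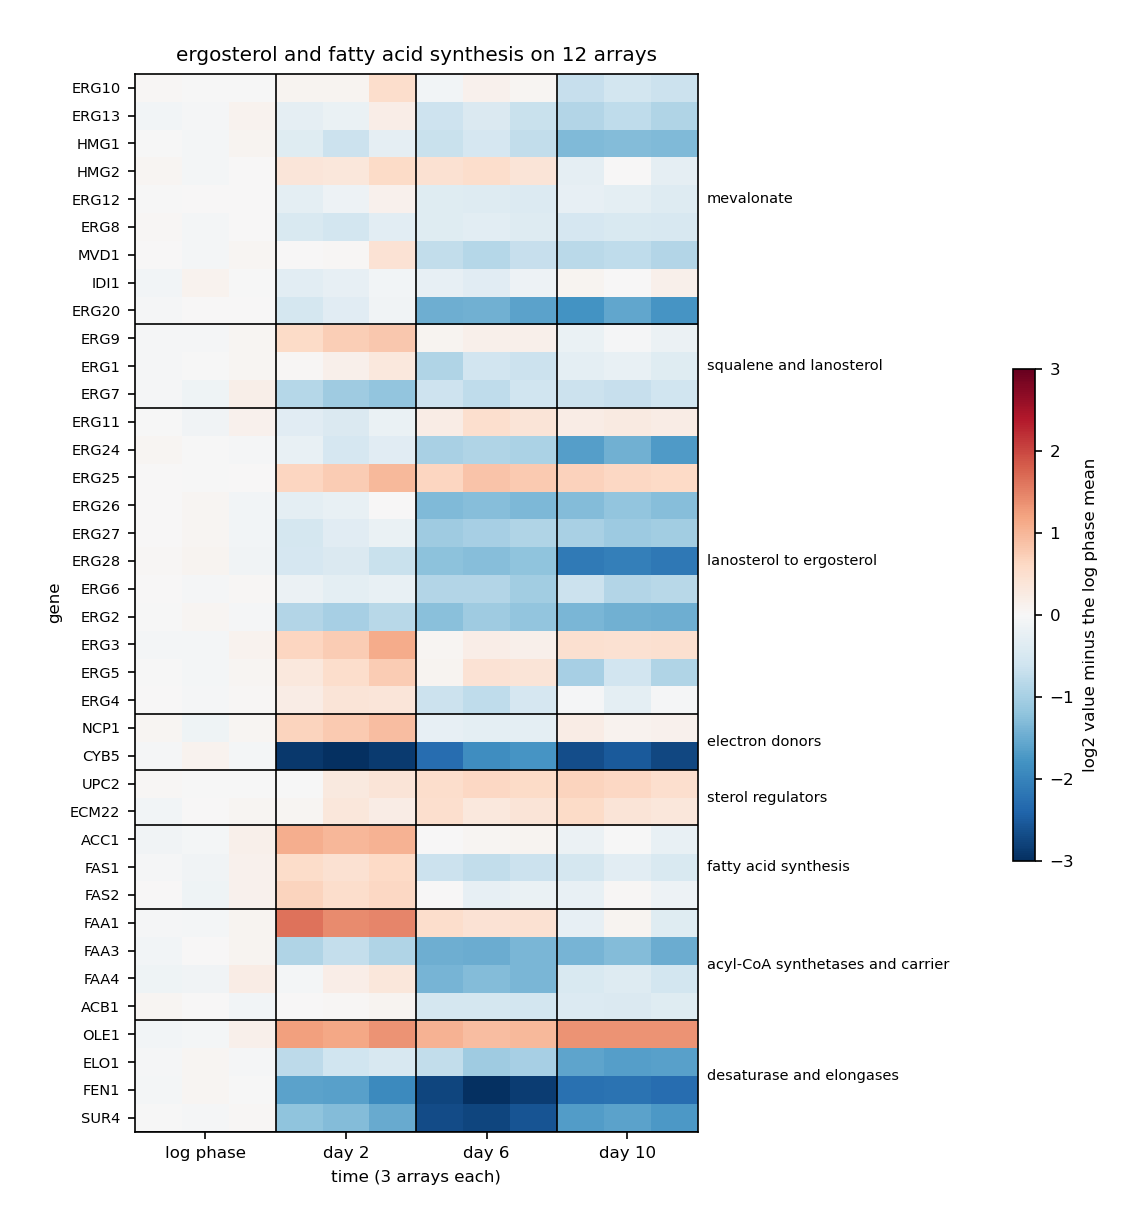
Each row is 1 of the 38 genes and each column 1 of the 12 arrays, and colour gives the log2 value minus the gene's log phase mean, from -3 (blue) to 3 (red), with genes ordered by role. CYB5, FEN1 and SUR4 are the darkest blue rows, OLE1 is red at all 3 later times and FAA1 is most red on day 2; under control centring OLE1 turns to -0.21 on day 6, and 0.12 without bioB.

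On day 2 the pathways split into 14 genes higher and 16 lower than in log phase, and by day 6 the balance had moved to 8 higher and 25 lower, with 6 higher and 24 lower on day 10. Of all 5449 genes, 80.5% were called on day 2, 82.7% on day 6 and 79.3% on day 10. The shares called lower were 42.1% of the pathway genes and 41.5% of all genes on day 2, 65.8% and 41.1% on day 6, and 63.2% and 39.8% on day 10. The shares called higher were 36.8% and 39% on day 2, 21.1% and 41.6% on day 6, and 15.8% and 39.5% on day 10. The arrays of the later time did not overlap those of log phase for 29, 34 and 31 of the 38 genes on days 2, 6 and 10, and for 82.6%, 86.4% and 83.7% of all genes. Their median difference went from -0.02 on day 2 to -0.60 on day 6 and -0.48 on day 10. Under control centring, 6 were called higher and 20 lower on day 2, 0 and 37 on day 6, and 1 and 36 on day 10. Without bioB it was 11 and 12, 0 and 35, and 1 and 33. Control centring moves every gene of an array alike, so these counts are no result about the pathways alone. Shares of all genes under it are not given here. Changes of at least 2-fold were called lower for 4, 9 and 12 of the 38 genes on days 2, 6 and 10, where 10.7%, 13.5% and 8.46% of all genes were. They were called higher for 3, 0 and 1 of the 38, against 12.2%, 13.4% and 10.8% of all genes.

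The step between the stationary days was mostly downward: from day 2 to day 6, 27 of the 38 genes fell and 4 rose (median -0.59), where of all genes 67.1% were called, 31.9% lower and 35.2% higher. The arrays of the 2 days did not overlap for 29 of the 38 genes (68.5% of all genes), and changes of at least 2-fold were called lower for 8 and higher for 0 (3.91% and 2.5% of all genes). The genes that rose were ERG7, ERG11, CYB5 and UPC2, and only CYB5 kept its sign under control centring, where 0 were called higher. RNA integrity was read from 8 control genes as their 3' minus their 5' probe sets, which came to 1.25 ± 0.07 (SD, n = 3) in log phase and 0.86 ± 0.24 on day 2, against 1.65 ± 0.05 for day 6 and 1.28 ± 0.07 for day 10. With this signal as a covariate 15 fell and 3 rose from day 2 to day 6. At that step 1636 of all 5449 genes were then called, against 3659 without the covariate. Against log phase 9 of the 38 were higher and 17 lower on day 2, 10 and 21 on day 6, and 6 and 24 on day 10. Shares of all genes called higher or lower with the covariate are not given here. The part of RNA integrity in the results was not tested further. From day 6 to day 10 the movement was mixed, with 10 higher and 13 lower. Of all genes 60.9% were called, 28.8% higher and 32.1% lower. Here the arrays did not overlap for 25 of the 38 genes (68.7% of all genes), and 1 gene, SUR4, was called higher and 1, ERG5, lower by at least 2-fold (3.4% and 1.74% of all genes). The moderated F test over the 4 times called all 38 (95.5% of all genes), and among days 2, 6 and 10 it called 35 (85% of all genes), without ERG8, ERG25 and ECM22.

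The mevalonate enzymes were mostly lower on days 6 and 10, and ERG20, at the end of this segment, had the largest fall. Of 9 genes, 4 were lower and 1 higher on day 2, which is 44.4% lower against 41.5% of all genes. On day 6 7 were lower and 1 higher, and on day 10 7 and 0, which is 77.8% lower on both days against 41.1% and 39.8% of all genes. ERG20, which encodes the farnesyl pyrophosphate synthetase that feeds sterols, dolichol and prenyl groups, stood at 10.06, 10.11 and 10.12 in log phase, at 9.56, 9.76 and 9.99 on day 2, at 8.62, 8.66 and 8.49 on day 6 and at 8.31, 8.53 and 8.33 on day 10. Its 3 log phase arrays lay above all others and its day 6 and day 10 arrays far below, at -1.50 ± 0.09 (adjusted p = 4.46e-09) and -1.70 ± 0.09 (adjusted p = 2.09e-09). These are 2.83-fold and 3.26-fold lower.

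HMG1 and HMG2 encode HMG-CoA reductase, the committed step of the pathway, and relative to other genes went opposite ways on days 2 and 6. HMG1 stood at 9.24, 9.20 and 9.34 in log phase, at 8.89, 8.62 and 8.98 on day 2, at 8.59, 8.75 and 8.51 on day 6 and at 7.94, 7.95 and 7.93 on day 10. It fell at each step, to -0.43 ± 0.09 on day 2 and -1.32 ± 0.09 on day 10 against log phase, although its call between days 2 and 6 (-0.21) was lost when any 1 of 9 of the 12 arrays was left out (adjusted p up to 0.181, limma). HMG2 stood at 7.87, 7.76 and 7.82 in log phase, at 8.17, 8.15 and 8.40 on day 2, at 8.27, 8.35 and 8.21 on day 6 and at 7.56, 7.83 and 7.54 on day 10. Its day 2 and day 6 arrays were all above log phase, at 0.42 ± 0.09 and 0.46 ± 0.09, but under control centring day 6 was at -0.73 (-0.40 without bioB). The day 2 shift of control centring, -0.42 (-0.05 without bioB), is as large as the day 2 difference of HMG2. On day 10 HMG2 was at -0.17 ± 0.09 and not called.

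The other mevalonate genes changed less than ERG20 and HMG1 did by day 10. ERG10, for the thiolase that opens the pathway, was not called on days 2 and 6 and was at -0.63 ± 0.10 on day 10. ERG13, for HMG-CoA synthase, was at -0.57 ± 0.11 on day 6 and -0.85 ± 0.11 on day 10. Of the kinases, ERG12 was at -0.39 ± 0.08 and ERG8 at -0.36 ± 0.06 on day 6. MVD1, for the decarboxylase that yields isopentenyl pyrophosphate, was at 0.16 ± 0.09 and not called on day 2 and then at -0.76 ± 0.09 on day 6. IDI1, for the isomerase of that product, was called lower on days 2 (-0.22 ± 0.08) and 6 (-0.24 ± 0.08) and was not called on day 10.

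Of the 3 genes between farnesyl pyrophosphate and lanosterol, the first and the last moved apart on day 2. ERG9, for squalene synthase, stood at 8.97, 8.96 and 9.05 in log phase, at 9.56, 9.74 and 9.81 on day 2, at 9.07, 9.14 and 9.15 on day 6 and at 8.79, 8.96 and 8.82 on day 10. Its day 2 arrays were above all others, at 0.71 ± 0.07 against log phase (adjusted p = 5.71e-07), and it was not called on days 6 and 10. Under control centring ERG9 was at -1.06 on day 6 and at -0.73 without bioB. ERG7, for lanosterol synthase, stood at 9.02, 8.92 and 9.23 in log phase, at 8.21, 7.99 and 7.88 on day 2, at 8.43, 8.30 and 8.46 on day 6 and at 8.42, 8.36 and 8.46 on day 10. It was lowest on day 2, at -1.03 ± 0.09 (adjusted p = 1.66e-07, 2.04-fold lower), and its later arrays lay between day 2 and log phase. ERG1, for the squalene epoxidase, which uses oxygen, was at 0.18 ± 0.09 and not called on day 2, at -0.70 ± 0.09 on day 6 and at -0.29 ± 0.09 on day 10.

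The 11 genes from lanosterol to ergosterol were mostly lower on days 6 and 10, with a few higher beside them. On day 2 6 were lower and 4 higher (54.5% and 36.4%, against 41.5% and 39% of all genes). On day 6 and again on day 10 7 were lower and 3 higher (63.6% and 27.3%, against 41.1% and 41.6% of all genes on day 6 and 39.8% and 39.5% on day 10). ERG28, for the scaffold that holds the demethylation enzymes together, stood at 10.39, 10.44 and 10.24 in log phase, at 9.85, 9.91 and 9.69 on day 2, at 9.13, 9.09 and 9.16 on day 6 and at 8.25, 8.32 and 8.21 on day 10. It fell at every step without overlap, to -0.54 ± 0.07, -1.23 ± 0.07 and -2.10 ± 0.07 against log phase on days 2, 6 and 10, the last 4.28-fold lower (adjusted p = 2.10e-11).

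ERG25, for the sterol methyl oxidase that works on that scaffold, went the other way. It stood at 10.55, 10.52 and 10.54 in log phase, at 11.18, 11.30 and 11.51 on day 2, at 11.19, 11.40 and 11.31 on day 6 and at 11.24, 11.16 and 11.14 on day 10. All 9 later arrays were above the 3 of log phase, at 0.79 ± 0.08, 0.76 ± 0.08 and 0.64 ± 0.08, but under control centring it was at -0.43 on day 6 and -0.33 on day 10, and at -0.092 and -0.00095 without bioB. Its partners in the removal of the methyl groups were both lower: ERG26, for the decarboxylase, was at -1.32 ± 0.07 on day 6 and ERG27, for the keto reductase, at -0.99 ± 0.08.

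ERG3, for a desaturase that uses oxygen, stood at 9.04, 9.04 and 9.19 in log phase, at 9.74, 9.84 and 10.20 on day 2, at 9.14, 9.29 and 9.23 on day 6 and at 9.57, 9.54 and 9.57 on day 10. It was highest on day 2, at 0.84 ± 0.10 (adjusted p = 2.42e-06), and was at 0.14 ± 0.10 on day 6, not called. The day 6 value was -1.05 under control centring and -0.72 without bioB. It was at 0.47 ± 0.10 on day 10, which turned to -0.50 under control centring and -0.17 without bioB. ERG11, for the P450 enzyme that demethylates lanosterol and is the target of azole drugs, was at -0.32 ± 0.08 on day 2 and 0.38 ± 0.08 on day 6, the latter -0.81 under control centring and -0.48 without bioB. ERG5, for the other P450 enzyme, was at 0.53 ± 0.13 on day 2, at 0.31 ± 0.13 on day 6 (-0.88 under control centring and -0.55 without bioB, with the call lost without any 1 of the log phase arrays, day 2 replicate 2 or day 6 replicates 2 and 3, at an adjusted p up to 0.143) and at -0.82 ± 0.13 on day 10.

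ERG24, for a reductase, fell to -1.60 ± 0.08 on day 10, ERG2, for the isomerase, to -1.42 ± 0.06 and ERG6, for the methyltransferase, to -0.79 ± 0.07, each also called lower on days 2 and 6. ERG4, for the reductase of the final step, took another course: it was at 0.33 ± 0.08 on day 2 (-0.096 under control centring), at -0.64 ± 0.08 on day 6 and at -0.12 ± 0.08 on day 10, not called.

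The electron donors moved in opposite directions on day 2. CYB5, for the cytochrome b of the endoplasmic reticulum that passes electrons to sterol and lipid enzymes, stood at 10.21, 10.36 and 10.21 in log phase, at 7.36, 7.28 and 7.39 on day 2, at 7.98, 8.40 and 8.49 on day 6 and at 7.59, 7.75 and 7.54 on day 10. Log phase lay far above every later array, and day 2 was the lowest time, at -2.92 ± 0.11 against log phase, 7.55-fold lower (adjusted p = 5.04e-11). From day 2 to day 6 it rose by 0.95 ± 0.11 and from day 6 to day 10 it stood at -0.66 ± 0.11, so it moved against most of the 38 genes at the first of these steps.

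NCP1, for the reductase that supplies the P450 enzymes and squalene epoxidase, stood at 9.39, 9.21 and 9.40 in log phase, at 10.01, 10.13 and 10.26 on day 2, at 9.08, 9.04 and 9.04 on day 6 and at 9.56, 9.43 and 9.46 on day 10. It was highest on day 2, at 0.80 ± 0.07 (adjusted p = 1.86e-07), fell by 1.08 ± 0.07 to day 6 and was at 0.15 ± 0.07 and not called on day 10. The day 10 value was -0.82 under control centring and -0.49 without bioB. The 3 day 2 arrays of NCP1 did not overlap those of any other time.

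Both sterol regulators were called a little higher at all 3 later times, and neither kept that sign on day 6 or 10 under control centring. UPC2 stood at 7.25, 7.19 and 7.21 in log phase, at 7.20, 7.51 and 7.59 on day 2, at 7.74, 7.85 and 7.78 on day 6 and at 7.89, 7.83 and 7.72 on day 10. On day 2 only 2 of its arrays were above log phase (0.22 ± 0.09, adjusted p = 0.0294), and on days 6 and 10 all were, at 0.57 ± 0.09 and 0.60 ± 0.09. ECM22 stood at 7.68, 7.78 and 7.83 in log phase, at 7.82, 8.10 and 7.99 on day 2, at 8.26, 8.07 and 8.14 on day 6 and at 8.33, 8.16 and 8.10 on day 10. It was at 0.21 ± 0.08, 0.40 ± 0.08 and 0.44 ± 0.08, with the lowest day 2 array inside the log phase range. These are changes relative to other genes. Under control centring UPC2 was at -0.20, -0.62 and -0.37 and ECM22 at -0.21, -0.79 and -0.53. Without bioB they were at -0.28 and -0.46 on day 6 and -0.042 and -0.21 on day 10. The day 2 calls of both were lost with quantile normalization and without day 2 replicate 2, day 2 replicate 3 or log phase replicate 2. UPC2's was also lost without log phase replicate 3 (0.14 to 0.22 over these, adjusted p up to 0.134) and ECM22's without log phase replicate 1 (0.15 to 0.22, adjusted p up to 0.140), and UPC2 was at -0.045 on day 2 with the covariate for RNA integrity.

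All 3 genes of fatty acid synthesis were called higher on day 2 and then lower on day 6 than on day 2, as were 14.5% of all genes. The differences between days 6 and 2 were -0.98 for ACC1, -1.22 for FAS1 and -0.75 for FAS2. ACC1, for the carboxylase of the committed step, stood at 10.91, 10.95 and 11.16 in log phase, at 12.09, 11.999 and 12.05 on day 2, at 11.02, 11.06 and 11.10 on day 6 and at 10.84, 11.003 and 10.78 on day 10. Its day 2 arrays were the only ones near 12, at 1.04 ± 0.07 against log phase (2.05-fold, adjusted p = 2.14e-08), and on days 6 and 10 it was not called. Under control centring ACC1 was at -1.13 on day 6 and at -0.80 without bioB. FAS1, for the beta subunit of the synthase, stood at 11.15, 11.09 and 11.33 in log phase, at 11.74, 11.65 and 11.79 on day 2, at 10.54, 10.45 and 10.56 on day 6 and at 10.67, 10.87 and 10.73 on day 10. It was at 0.54 ± 0.07 on day 2 and then below log phase, at -0.67 ± 0.07 on day 6 and -0.44 ± 0.07 on day 10. FAS2, for the alpha subunit, was at 0.60 ± 0.09 on day 2 and was not called against log phase on days 6 and 10. The day 2 shift of control centring, -0.42, is close in size to the day 2 rises of FAS1 and FAS2, and without bioB it was -0.05.

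Among the acyl-CoA synthetases, which activate fatty acids, the 3 isoenzyme genes took different courses. FAA1 stood at 9.05, 9.03 and 9.17 in log phase, at 10.70, 10.50 and 10.55 on day 2, at 9.61, 9.51 and 9.53 on day 6 and at 8.82, 9.15 and 8.72 on day 10. It had the largest rise of the 38 genes on day 2, 1.50 ± 0.10 or 2.83-fold (adjusted p = 6.36e-09), was at 0.47 ± 0.10 on day 6 (-0.72 under control centring and -0.38 without bioB) and was not called on day 10. FAA4 stood at 9.30, 9.32 and 9.66 in log phase, at 9.38, 9.63 and 9.78 on day 2, at 8.04, 8.14 and 8.06 on day 6 and at 8.98, 9.03 and 8.87 on day 10. It was not called on day 2, dipped on day 6 to -1.35 ± 0.11 against log phase and rose by 0.88 ± 0.11 from day 6 to day 10.

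FAA3 stood at 8.53, 8.63 and 8.71 in log phase, at 7.72, 7.90 and 7.71 on day 2, at 7.17, 7.14 and 7.26 on day 6 and at 7.23, 7.33 and 7.14 on day 10. It fell to -0.85 ± 0.07 by day 2 and -1.44 ± 0.07 by day 6 and stayed there, with no call between days 6 and 10. ACB1, for the protein that carries acyl-CoA in the cytosol, was not called on day 2 and was at -0.53 ± 0.05 on day 6 and -0.41 ± 0.05 on day 10.

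Relative to other genes, the desaturase gene was called higher and the 3 elongase genes lower than in log phase at all 3 later times. Between the stationary days they did not part in this way. From day 2 to day 6 all 4 were called lower, and from day 6 to day 10 3 were called higher and ELO1 lower. OLE1, for the acyl-CoA desaturase that makes the unsaturated fatty acids of this yeast, stood at 10.32, 10.35 and 10.56 in log phase, at 11.63, 11.57 and 11.76 on day 2, at 11.45, 11.34 and 11.37 on day 6 and at 11.77, 11.77 and 11.76 on day 10. Every later array was above log phase by over 0.7, with differences of 1.24 ± 0.07, 0.98 ± 0.07 and 1.35 ± 0.07 and folds of 2.37, 1.97 and 2.56 (adjusted p = 2.03e-09, 1.66e-08 and 1.12e-09). Under control centring these were 0.82, -0.21 and 0.39. Day 6 alone turned, and without bioB it was at 0.12. OLE1 was the one gene of the 38 still called higher than log phase on day 10 under either control centring.

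FEN1, for an elongase that makes the long acyl chains of sphingolipids, stood at 9.78, 9.89 and 9.81 in log phase, at 8.22, 8.21 and 7.91 on day 2, at 7.08, 6.73 and 6.98 on day 6 and at 7.58, 7.62 and 7.55 on day 10. Its 4 times did not overlap, day 6 was lowest at -2.90 ± 0.09 (7.46-fold, adjusted p = 1.03e-11), and it rose by 0.65 ± 0.09 from day 6 to day 10. SUR4, for the elongase of the longest chains, stood at 10.30, 10.27 and 10.33 in log phase, at 9.09, 8.99 and 8.78 on day 2, at 7.60, 7.54 and 7.72 on day 6 and at 8.62, 8.70 and 8.58 on day 10. It followed the same order, with -1.34 ± 0.08, -2.68 ± 0.08 and -1.67 ± 0.08 against log phase and a rise of 1.01 ± 0.08 from day 6 to day 10. ELO1, for the elongase of medium chains, was at -0.62 ± 0.09, -0.93 ± 0.09 and -1.62 ± 0.09. Its fall from day 2 to day 6 (-0.31) had overlapping arrays and was at 0.031 with the covariate for RNA integrity, and from day 6 to day 10 it fell by 0.68 ± 0.09.

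**Figure D2:**
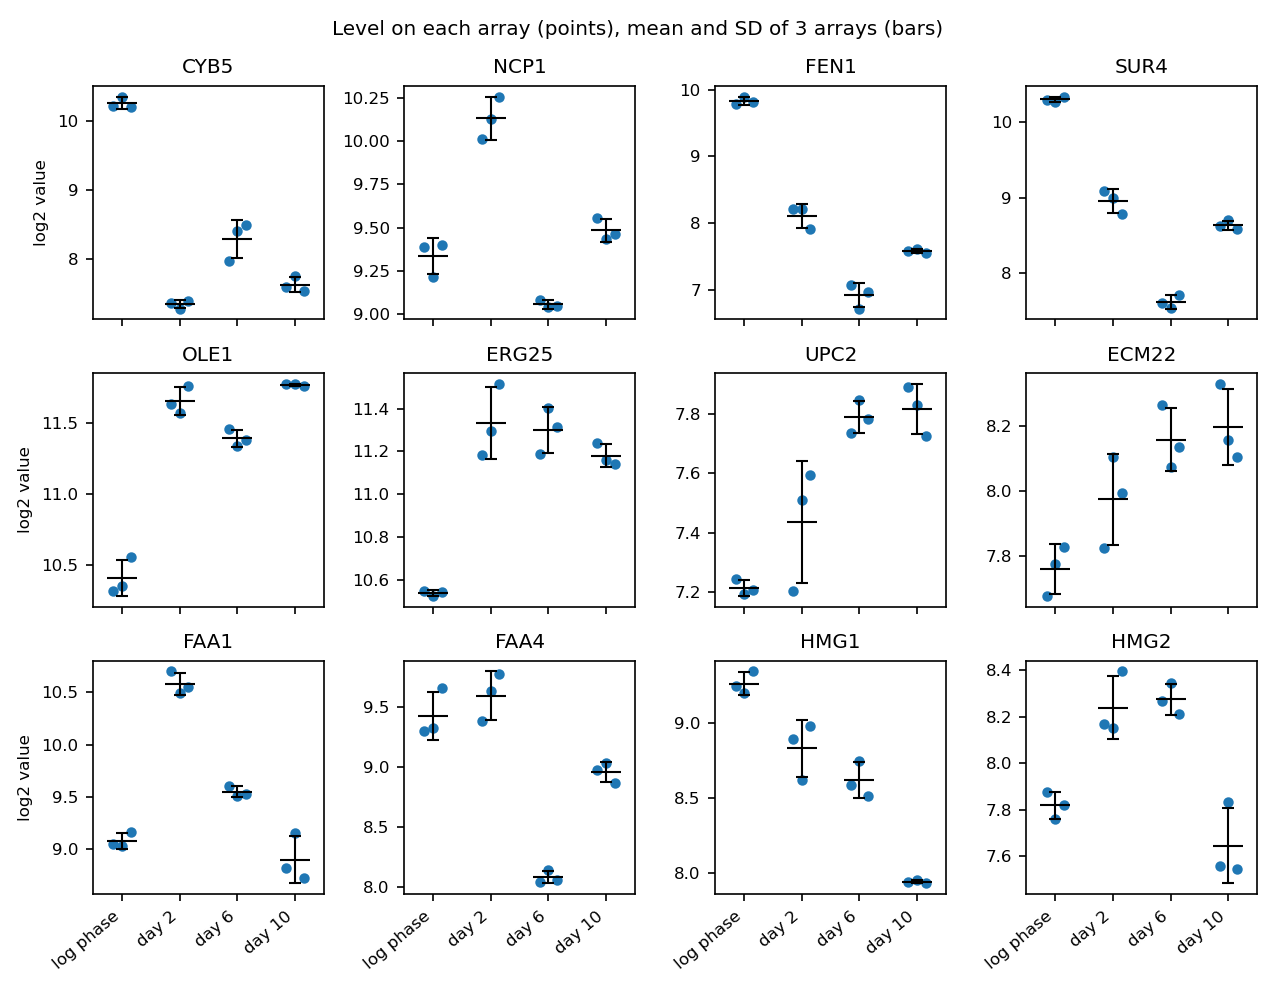
Points are the log2 values of single arrays of 12 genes at the 4 times. Bars show the mean and SD of 3 arrays; the vertical axes differ between panels and do not start at 0. CYB5, FEN1 and SUR4 lie lower on every later array than in log phase, OLE1 and ERG25 higher, and FAA1 peaks on day 2; under control centring OLE1 is at -0.21 and ERG25 at -0.43 on day 6.

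Whether related genes changed unequally was tested on the difference of the genes within each array, which no centring of the arrays can move, with an exact permutation test of the F statistic over the 4 times and 12 arrays, adjusted over 8 pairs. The smallest p this test allows is 6.49e-05. The pairs were chosen with earlier results of these data known, and the part of RNA integrity in their differences was not tested. The reductase genes HMG1 and HMG2 changed unequally, with differences of their changes from log phase of -0.85, -1.10 and -1.14 ± 0.09 (SE) on days 2, 6 and 10 (adjusted p = 0.000742, exact permutation test). For FAA1 against FAA4 they were 1.33, 1.82 and 0.29 ± 0.15 (adjusted p = 0.00013, exact permutation test), so these isoenzyme genes drew apart most on day 6. For FAA1 against FAA3 they were 2.35, 1.91 and 1.21 ± 0.10 (adjusted p = 0.00013, exact permutation test).

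NCP1 and CYB5 differed by 3.72, 1.69 and 2.78 ± 0.16 (adjusted p = 0.00013, exact permutation test), the widest of the 8 gaps on days 2 and 10 but not on day 6. Even the subunits FAS1 and FAS2, which work in one complex, differed by -0.06, -0.52 and -0.32 ± 0.05 (adjusted p = 0.000208, exact permutation test), little on day 2 and more later. The elongase genes FEN1 and SUR4 differed by -0.37, -0.22 and -0.58 ± 0.08 (adjusted p = 0.000433, exact permutation test), small against their shared falls, and ELO1 and FEN1 by 1.09, 1.96 and 0.63 ± 0.14 (adjusted p = 0.00013, exact permutation test). For the regulators UPC2 and ECM22 the differences were 0.01, 0.18 and 0.17 ± 0.09 and the test did not pass (adjusted p = 0.176, exact permutation test), which does not show that they changed alike. Related sequences can share hybridisation signal, which would make such differences look smaller.

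**Figure D3:**
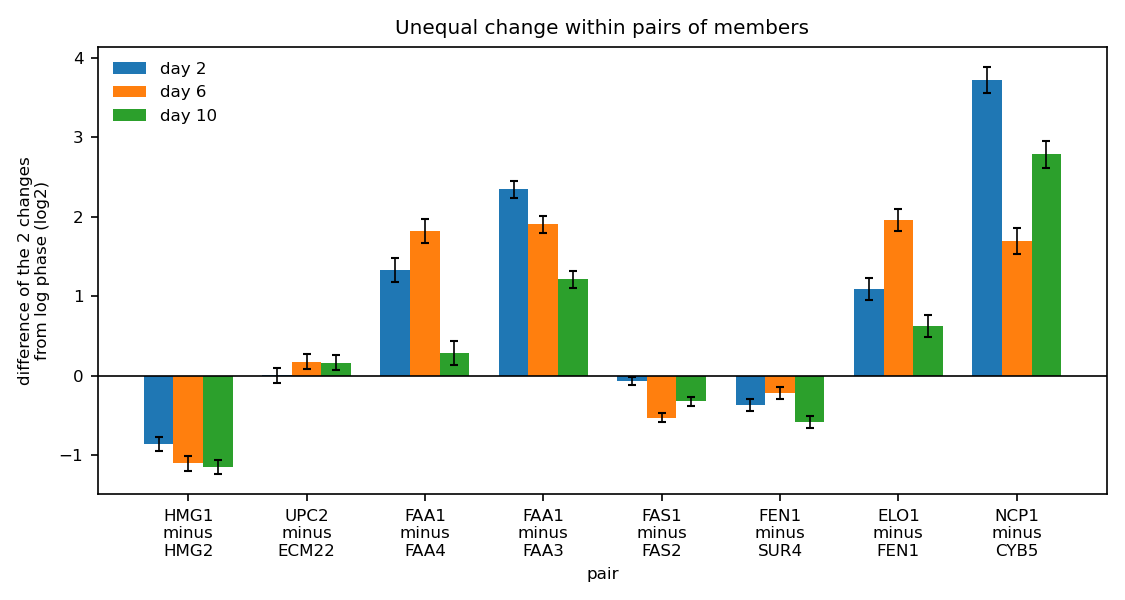
Bars give, for each of 8 pairs, the change of the first gene from log phase minus that of the second on days 2, 6 and 10 (log2), with the standard error from 12 arrays. NCP1 against CYB5 has the tallest bars on days 2 (3.72) and 10 (2.78) and ELO1 against FEN1 on day 6 (1.96), and UPC2 against ECM22 is the only pair that did not pass the test.

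Several time courses recurred across roles. Lower than log phase at all 3 later times were 14 of the 38 genes (36.8%, against 28.5% of all genes): HMG1, ERG8, ERG20, ERG7, ERG24, ERG27, ERG28, ERG6, ERG2, CYB5, FAA3, ELO1, FEN1 and SUR4. Higher at all 3 were 4 (10.5%, against 28.1% of all genes), namely ERG25, OLE1, UPC2 and ECM22. All of them turned on day 6 under control centring, but OLE1 not without bioB. A rise on day 2 followed by a fall to day 6 was called for 9 (23.7%, against 14.5% of all genes): ERG9, ERG3, ERG4, NCP1, ACC1, FAS1, FAS2, FAA1 and OLE1. By the means, 17 of the 38 were highest in log phase and 15 on day 2, and 14 were lowest on day 6 and 16 on day 10. Of all genes 38% were highest in log phase, 20.8% on day 2, and 22.6% and 17.1% were lowest on days 6 and 10.

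The enzymes that use oxygen directly, ERG1, ERG11, ERG25, ERG3, ERG5 and OLE1, were grouped after their values were seen, so their counts are a description only. On each of days 2, 6 and 10, 4 of these 6 were called higher than in log phase, though not the same genes each time, and 1, 1 and 2 lower. Of the other 32, 10, 4 and 2 were higher and 15, 24 and 22 lower. The shares of all genes were 39%, 41.6% and 39.5% higher and 41.5%, 41.1% and 39.8% lower. Among the 6, the day 6 call of ERG5 was lost when any 1 of 6 arrays was left out. The day 10 call of ERG11 (0.24 ± 0.08) was lost without log phase replicate 2 (adjusted p = 0.0817, limma). With all controls as the centre 1 of the 6, OLE1, was positive on day 10 and none on day 6, and without bioB OLE1 was the 1 positive on both days.

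Within a time, the arrays differed unevenly on these pathways. On day 2 replicate 3 was the highest of the 3 for 26 of the 38 genes (68.4%, against 42.9% of all genes). On day 10 it was replicate 2 for 24 genes (63.2%, against 35.5%), in log phase replicate 3 for 23 (60.5%, against 41.2%) and on day 6 replicate 2 for 17 (44.7%, against 24.1%). The median deviation of the 38 genes from their day 2 means was -0.09, -0.04 and 0.12 on replicates 1, 2 and 3, and that of all genes was -0.02, -0.00 and 0.02. The control genes' 3' minus 5' difference was 1.13, 0.75 and 0.69 on the day 2 arrays. Its part in the difference was not tested. On day 2 ERG10 was at 10.18, 10.20 and 10.64 and MVD1 at 9.56, 9.60 and 9.98. Neither was called, but both were called higher without day 2 replicate 1, and ERG10 also without day 2 replicate 2. Without day 2 replicate 3, ERG13 (-0.23), ERG12 (-0.22) and ERG26 (-0.26) were called lower on day 2. Other calls also rested on single arrays: ERG1 was called higher on day 2 without day 2 replicate 1 or day 6 replicate 1, FAA4 without day 2 replicate 1 or log phase replicate 3 (0.28 for both). IDI1 lost its day 2 call without log phase replicate 2 or day 2 replicate 1 or 2 (-0.20 to -0.16). Without day 10 replicate 2, HMG2 (-0.27), ERG9 (-0.18), ACC1 (-0.20) and FAA1 (-0.31) were called lower than log phase on day 10. Leaving out any 1 of the 12 arrays gave between 12 and 18 of the 38 genes called higher on day 2 and between 15 and 19 called lower.

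The surrounding lipid pathways were read from 10 lists of 107 genes, which with the members were chosen with earlier results of these data known. In all, 53 were called higher and 34 lower on day 2 (49.5% and 31.8%, against 39% and 41.5% of all genes). On day 6 it was 35 and 49 (32.7% and 45.8%, against 41.6% and 41.1%), and on day 10 37 and 51 (34.6% and 47.7%, against 39.5% and 39.8%). The same all-gene shares are the ground for each list below, and lists of so few genes are given as counts. Under control centring the 107 genes gave 19 and 49, 4 and 94, and 4 and 93, and without bioB 30 and 28, 6 and 83, and 6 and 76. Shares of all genes under these centrings are not given here. These are differences relative to the array, and the shifts above apply to each of them.

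Of 18 genes of phospholipid synthesis 10 were higher and 5 lower on day 2 (55.6% and 27.8%, against 39% and 41.5% of all genes). On day 6 2 were higher and 12 lower (11.1% and 66.7%, against 41.6% and 41.1%, median -0.58), and on day 10 3 and 13 (16.7% and 72.2%, against 39.5% and 39.8%). PIS1, for phosphatidylinositol synthase, was at -2.25 ± 0.10 on day 6, CHO1, for phosphatidylserine synthase, at -1.86 ± 0.11, and PSD1, for the decarboxylase of its product, at -2.38 ± 0.11 on day 10. Of 6 genes of the elongation cycle and very long chain acids, 2 were higher and 2 lower on day 2, 1 and 4 on day 6 (median -0.68) and 1 and 3 on day 10 (median -0.14). PHS1, for the dehydratase of the cycle that FEN1 and SUR4 start, was at -1.91 ± 0.09 on day 10 and IFA38, for its keto reductase, at -1.39 ± 0.11. FAA2, for a peroxisomal acyl-CoA synthetase, was at 1.16 ± 0.08 on day 2.

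Of 12 genes of triacylglycerol synthesis and lipolysis, 7 were higher and 4 lower on day 2 and 8 and 3 on day 6 (66.7% and 25%, against 41.6% and 41.1% of all genes; median 0.19, below 0 under control centring). On day 10 5 were higher and 5 lower (41.7% for both, against 39.5% and 39.8%). DGA1, for the acyltransferase that completes triacylglycerol, was at 1.59 ± 0.06 on day 6 and GPT2, for a glycerol phosphate acyltransferase, at 1.69 ± 0.06, while SLC1, for the next acyltransferase, was at -1.71 ± 0.06. Of 5 genes of sterol esters 2 were higher and 3 lower on day 2, and 1 and 2 on days 6 and 10. ARE2, for the acyltransferase that esterifies ergosterol, was at 0.98 ± 0.05 on day 2, the ester hydrolase gene TGL1 at 0.88 ± 0.09 and YEH1, for another hydrolase, at -0.90 ± 0.06.

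Of 16 genes of sterol uptake, transport and acetylation, 10 were higher and 3 lower on day 2 (62.5% and 18.8%, against 39% and 41.5% of all genes; median 0.23, below 0 with all controls). On day 6 it was 6 and 5 (median -0.0060) and on day 10 4 and 5 (median -0.11). ATF2, for the sterol acetyltransferase, was at least 4.51-fold lower on day 6, where it lay below background. NCR1, for a vacuolar sterol transporter, was at 1.002 ± 0.07 on day 2 and SUT2, for a putative regulator of sterol uptake, at -1.41 ± 0.09. Of 10 regulators of sterol and unsaturated fatty acid synthesis, 9 were higher and 1 lower on day 2 (90% and 10%, median 0.50), 6 and 2 on day 6 (median 0.47) and 6 and 1 on day 10 (median 0.20), the later medians below 0 under control centring. ROX1, for the repressor of hypoxic genes, was at 1.95 ± 0.10 on day 10. HRD1, for the ubiquitin ligase that marks Hmg2 for degradation, was at 0.93 ± 0.08 on day 2, and NSG1, for a protein that stabilises Hmg2, at -1.50 ± 0.05 on day 6. Haem synthesis, which serves the P450 enzymes and the cytochrome, was called lower in 5 of 8 genes and higher in 1 on day 2, 6 and 1 on day 6 (75% and 12.5%, against 41.1% and 41.6% of all genes; median -0.56) and 5 and 2 on day 10. HEM13, for an oxygen-using step, was at -1.41 ± 0.07 on day 10, HEM3 at -0.94 ± 0.08 on day 6 and HEM12 at -0.86 ± 0.07 on day 10.

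Other users of the same precursors were mixed. Of 9 genes for other products of mevalonate 1 was higher and 4 lower on day 2, 2 and 5 on day 6 and 2 and 7 on day 10 (22.2% and 77.8%, against 39.5% and 39.8% of all genes). RER2, for the prenyltransferase that makes dolichol in growing cells, was at -1.32 ± 0.05 on day 2, SRT1, for its counterpart, at 0.99 ± 0.07 on day 10, about the size of the control shift, and COQ1 of coenzyme Q synthesis at -0.74 ± 0.08 on day 10. Of 8 genes of mitochondrial fatty acid synthesis 4 were higher and 2 lower on day 2, 3 and 3 on day 6 and 5 and 3 on day 10. Among those higher on day 6 were ETR1, for its reductase, at 3.06 ± 0.08, 8.34-fold, and HFA1, for the mitochondrial counterpart of Acc1, at 1.32 ± 0.07. MCT1, for a transferase, was at 1.20 ± 0.06 on day 2. Of 15 sphingolipid genes 7 were higher and 5 lower on day 2, 5 and 7 on day 6 (33.3% and 46.7%, against 41.6% and 41.1% of all genes) and 8 and 7 on day 10 (53.3% and 46.7%, against 39.5% and 39.8%). SUR1, for a subunit of the enzyme that adds mannose to sphingolipids, was at 2.37 ± 0.10 on day 10, ORM2, for a regulator of their first step, at 1.63 ± 0.08 on day 2 and LAG1, for a ceramide synthase subunit, at -1.42 ± 0.08 on day 6.

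**Figure D4:**
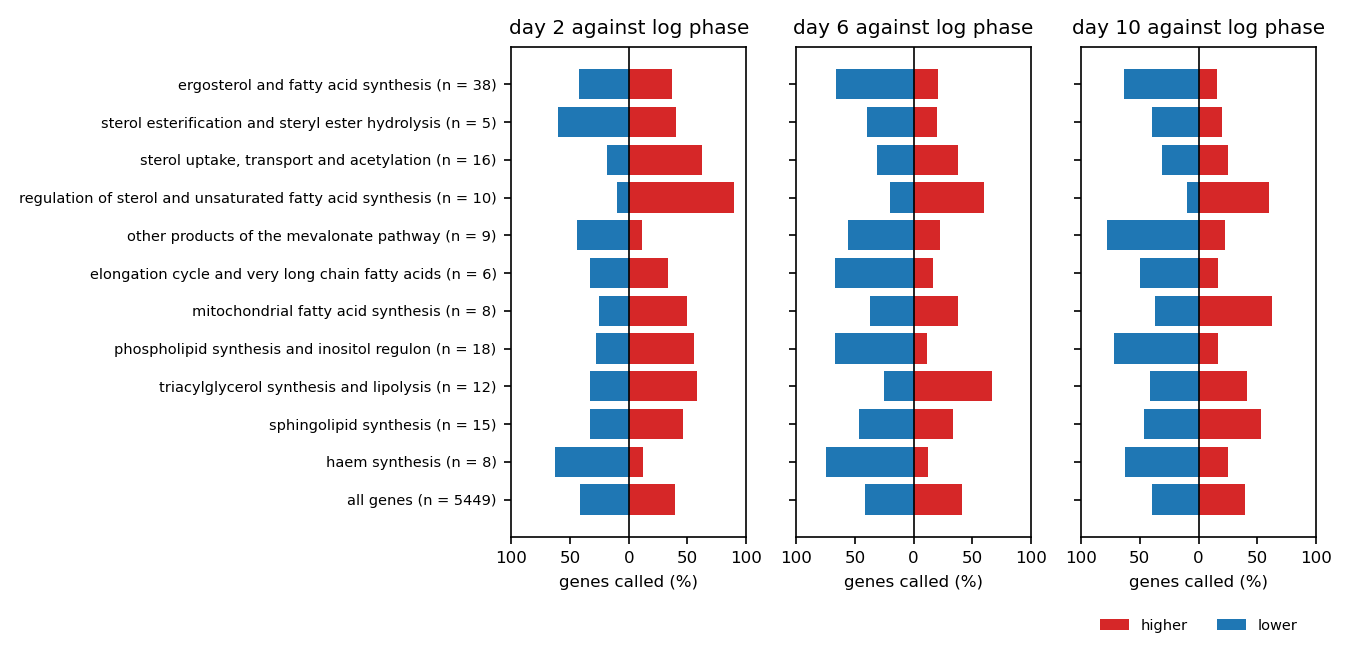
Bars to the right give the percent of genes called higher and bars to the left the percent called lower than in log phase on days 2, 6 and 10, for the 38 genes, 10 lists of lipid and haem genes and all 5449 genes (n in brackets). On days 6 and 10 the bars of the 38 genes reach further left than those of all genes. So do those of the phospholipid, haem, elongation and other mevalonate product lists. The sphingolipid bars do so by little (46.7% on both days, against 41.1% and 39.8%). On day 10 they also reach further right (53.3%, against 39.5%). Under control centring, which lowers every gene on these days, 4 of the 107 listed genes were called higher on each.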

How the data were processed

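RNA from 12 cultures or aliquots of S. cerevisiae, 3 per time, was hybridised to Affymetrix arrays after biotin labelling, per the labels' protocols. Per the submitters' processing notes the authors used PLIER, which gives 1 summary per probe set; version and settings were not given in the sources used here. Their deposited summaries run from 5.11 to 13.79 and were read as log2 for that reason. Median values per array ran from 7.80 to 7.89.

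Of 10928 probe sets, 5498 belonged to 5449 S. cerevisiae genes by the platform annotation and gene IDs of a RefSeq table of the reference strain S288C, and 1746 to another yeast species. For 47 genes the probe set with the highest mean stood for the gene. A linear model with 4 times was fitted with limma 3.58.1 in R 4.3.3 (8 residual degrees of freedom) and tested on simulated data. Where a group lay below the mean 95th percentile of the other species' probe sets, a fold is a lower bound. The number of arrays limits the precision. No array was a copy of another of its time.

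The members, lists and pairs were chosen with earlier results of these data known. Array values are given for CYB5, OLE1, the sterol regulators and the members with the highest and lowest change in each role; those of HMG1, ERG25, FAA4 and SUR4 were added after their values were seen. In each list up to 3 called genes with the largest change are named. A search of promoter motifs was planned and not run.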

Additional observations from a re-analysis of the deposited data

How the results depend on the processing

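The alternatives were quantile normalization, a linear offset of 16, centring on the median, on 27 hybridisation controls or on the 18 without bioB, the 3' minus 5' signal as a covariate, dim genes left out, each probe set alone, probe sets averaged, a trended robust prior, the 6 arrays of a comparison alone, the replicate number as a block, each array left out and a 2-fold minimum. The first limit is scale: centring on all controls turned 30 of 190 directions and centring without bioB 25, and the cause was not tested. Signs that turned with all controls were, on day 2 against log phase, ERG4 -0.10, UPC2 -0.20, ECM22 -0.21 and ACB1 -0.38. On day 6 they were ERG10 -1.16, HMG2 -0.73, ERG9 -1.06, ERG11 -0.81, ERG25 -0.43, ERG3 -1.05, ERG5 -0.88, UPC2 -0.62, ECM22 -0.79, ACC1 -1.13, FAA1 -0.72 and OLE1 -0.21, and on day 10 IDI1 -0.89, ERG11 -0.73, ERG25 -0.33, ERG3 -0.50, NCP1 -0.82, UPC2 -0.37 and ECM22 -0.53. For day 6 against day 2 they were HMG2 -0.73, ERG8 -0.69, ERG7 -0.40, ERG11 -0.070, UPC2 -0.42 and ECM22 -0.59, and for day 10 against day 6 ACC1 0.033. Without bioB they were, on day 6, ERG10 -0.83, HMG2 -0.40, ERG9 -0.73, ERG11 -0.48, ERG25 -0.092, ERG3 -0.72, ERG5 -0.55, UPC2 -0.28, ECM22 -0.46, ACC1 -0.80 and FAA1 -0.38, and on day 10 IDI1 -0.57, ERG11 -0.40, ERG25 -0.00095, ERG3 -0.17, NCP1 -0.49, UPC2 -0.042 and ECM22 -0.21. For day 6 against day 2 they were then HMG2 -0.77, ERG8 -0.73, ERG7 -0.44, ERG11 -0.11, UPC2 -0.45 and ECM22 -0.62, and for day 10 against day 6 ACC1 0.025. Some of these genes had no call before centring. Members called higher were 6, 0, 1 and 0 with all controls for day 2, day 6 and day 10 against log phase and day 6 against day 2, and 0, 1 and 0 without bioB for the last 3; 1938 and 1821 genes were called in all between days 10 and 6. With the 3' minus 5' covariate UPC2 was at -0.045 on day 2, and between days 6 and 2 ERG13 was at 0.15, ERG12 at 0.19, ERG7 at -0.21 and ELO1 at 0.031; 9 members were called higher on day 2, and 15 lower and 1636 genes in all between days 6 and 2. A 2-fold minimum by construction left 1250, 1464, 1051, 349 and 280 of all genes in the 5 comparisons in this order, 3, 0, 1, 0 and 1 members higher and 4, 9, 12, 8 and 1 lower.

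With the replicate block 14 members were called higher and 16 lower on day 2, 26 lower between days 6 and 2, and 12 lower between days 10 and 6. Only HMG1 (day 6 against day 2) and ACC1 (day 10 against day 6) lost a call. The numbers were not taken as pairs, since the labels state no pairing. Of 18 same-numbered pairs of arrays 5 deviated together (correlation over 0.1), and 7 of 12 arrays correlated best with their own number. These values do not settle whether the numbers mark pairs. The 7 pairs of genes that passed the exact permutation test also passed it with the offset, quantile normalization, the replicate block and each array left out. UPC2 with ECM22 passed under none of these, with adjusted p between 0.0661 and 0.301 (0.215 with the block). The members have single probe sets, so the alternatives for probe sets could not change this test. The 3' minus 5' covariate was not run on the pairs.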
